A study of Homo sapiens with 6 samples.

Results

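DEAD-box and DEAH-box RNA helicases carry the human gene symbols DDX and DHX. Members were chosen by symbol, as DDX or DHX followed by a number and at most 1 letter, without DDX6, DDX3Y and pseudogenes. The rule itself uses no measured value, but it was set with earlier results of these data known. Of 56 symbols that matched, DDX6, DDX3Y and the pseudogenes DDX12B and DDX12P made up the 4 left out. This gave 52 members, 36 DDX and 16 DHX, among the 78304 genes of the table. RIGI, the RNA sensor formerly named DDX58, is listed under its newer symbol and was therefore no member.

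The measurements come from Huh7, a long-established human cell line derived from a liver carcinoma, labelled as WT in genotype. After seeding for 24 h, the cells were kept for 24 h with the compound 16'-DEC (3 libraries) or with DMSO, its vehicle (3 libraries). The dose of 16'-DEC is not given in the sources used here. Nothing in the labels says whether the 3 libraries of a group came from separate cultures, and the spread behind every p-value may therefore be technical.

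Helicases of both families use ATP to separate short RNA duplexes or to strip proteins from RNA. DEAD-box proteins mostly open a duplex locally, whereas many DEAH-box proteins pull on or move along a strand. They act in almost every step of the life of an RNA, from transcription and splicing to export, ribosome assembly, translation and decay, and liver-derived cells, like other growing cells, depend on many of them.

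Levels are TPM, abundances per gene length that are scaled to the same sum in every library, so absolute depth is unknown and a level is relative to all other genes. Between 13131 and 13459 genes reached 1 TPM in the 16'-DEC libraries, against 14936 to 15118 in the DMSO libraries. All 10 hepatocyte and hepatoma markers averaged at least 1 TPM, and their summed level was 13491 to 13876 TPM with 16'-DEC and 14672 to 15112 TPM in DMSO. The sum holds moves in both directions: AFP averaged 965 TPM with 16'-DEC and 2721 TPM in DMSO and APOB 196 TPM with 16'-DEC and 627 TPM in DMSO, whereas KRT18 averaged 1314 TPM with 16'-DEC and 663 TPM in DMSO and APOA1 1203 TPM with 16'-DEC and 729 TPM in DMSO. Summed leukocyte markers (4 genes, CD3E at 0 throughout) came to 5.91 to 7.53 TPM with 16'-DEC and 4.73 to 5.88 TPM in DMSO. The 3 endothelial markers summed to 0.215 to 0.648 TPM with 16'-DEC and to 0.149 to 0.499 TPM in DMSO. The 5 fibroblast and stellate markers (DCN at 0 throughout) summed to 12.3 to 13.4 TPM with 16'-DEC and to 14.9 to 19.7 TPM in DMSO. The part of these differences in the helicase results was not tested.

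The families are named for 4 residues of the ATPase core, called motif II, which bind the magnesium and ATP that drive unwinding. The GENCODE 29 coding sequences were translated and searched for D, E, any residue and then D or H, preceded by an ATP-binding loop (motif I) and followed by motif III (SAT or TAT), which gave 1 match in 45 of the 52 members. It read DEAD in 26 DDX genes, DECD in 2 (DDX39A and DDX39B), DEVD in 2 (DDX21 and DDX50) and DESD in 1. The full search gave no match in DDX1, DDX11, DDX28, DDX60 and DDX60L. Among DHX genes motif II read DEAH in 8, DEVH in 4 and DEIH in 2, with no match in DHX32 and DHX58. A gene without a match may still carry the letters of motif II, as motifs I and III were required within set distances. The coding stretches around motif II are shown for the pair of DDX and the pair of DHX genes that fell most with 16'-DEC and for the pair of each family that rose most among those in which the motif was found, plus DDX39B as the paralog of DDX39A. Each runs 84 bases, 5′ to 3′ on the coding strand, with the 4 codons of motif II in capitals and 36 bases on each side.
DDX46: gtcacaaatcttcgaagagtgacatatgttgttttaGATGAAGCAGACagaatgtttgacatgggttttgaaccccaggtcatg
DDX21: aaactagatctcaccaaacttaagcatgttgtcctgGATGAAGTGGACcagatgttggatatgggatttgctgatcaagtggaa
DHX29: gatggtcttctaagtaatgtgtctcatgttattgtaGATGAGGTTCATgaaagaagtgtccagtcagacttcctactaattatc
DHX36: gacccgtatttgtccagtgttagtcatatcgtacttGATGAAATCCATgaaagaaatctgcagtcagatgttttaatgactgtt
DDX49: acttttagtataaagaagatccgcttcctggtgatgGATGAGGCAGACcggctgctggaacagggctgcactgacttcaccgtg
DDX39A: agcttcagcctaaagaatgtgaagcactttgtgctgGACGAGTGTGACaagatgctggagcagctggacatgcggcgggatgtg
DHX8: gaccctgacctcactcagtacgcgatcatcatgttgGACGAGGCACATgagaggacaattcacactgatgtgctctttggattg
DHX37: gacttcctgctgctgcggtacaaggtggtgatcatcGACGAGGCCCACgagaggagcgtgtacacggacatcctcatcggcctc
DDX39B: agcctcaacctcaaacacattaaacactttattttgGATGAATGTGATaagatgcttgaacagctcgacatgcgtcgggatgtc

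Of the 84 bases shown, G or C made up 34 in DDX46, 35 in DDX21, 31 in DHX29 and 31 in DHX36, the 4 genes that fell. They made up 44 in DDX49, 45 in DDX39A, 42 in DHX8 and 51 in DHX37, the 4 that rose, and 35 in DDX39B, which did not pass the test. Except for DDX39B, these genes were picked by the size of their change, and the split does not hold for all members. The same stretch had 47 in DDX55 and 46 in DDX27, which fell, and 36 in DDX47, which rose. DDX46 lies at chr5:134758771-134855133 on the plus strand (GRCh38), DDX21 at chr10:68956128-68985073 on the plus strand, DHX29 at chr5:55256245-55307722 on the minus strand and DHX36 at chr3:154272546-154324497 on the minus strand. DDX49 lies at chr19:18919675-18928633 on the plus strand, DDX39A at chr19:14408819-14419383 on the minus strand and DDX39B at chr6:31530219-31542448 on the minus strand. DHX8 lies at chr17:43483865-43610338 on the plus strand and DHX37 at chr12:124946825-124989122 on the minus strand. All 9 stretches are exonic coding sequence.

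In the comparison of 16'-DEC with DMSO, 45 members averaged at least 1 TPM and were tested, 30 DDX and 15 DHX. Of these, 24 fell (53.3%), 11 rose (24.4%) and 10 did not pass the test (limma on log2(TPM + 1), Benjamini-Hochberg adjustment over 14275 genes, threshold 0.05). Across all tested genes 48.9% fell and 22.7% rose, so the members' shares as deposited were near the background. The median change was -0.37 on the log2 scale for the members and -0.31 for all tested genes. In bulk RNA, fewer cells of a type and less RNA per cell cannot be told apart.

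Both families held more genes that fell than rose as deposited, whereas under median-of-ratios scaling 14 DDX genes fell and 13 rose and 7 DHX genes moved each way. Among 30 DDX genes 16 fell, 8 rose and 6 did not pass, with a median change of -0.40 and a range of -1.65 to 0.79. Of the 15 DHX genes 8 fell, 3 rose and 4 did not pass, and their changes ran from -1.94 to 0.50 around a median of -0.29. The median change of DDX genes was 0.11 log2 lower than that of DHX genes, and this difference was not tested. Taken in each library against the DMSO mean it was -0.17, -0.08 and -0.08 with 16'-DEC, against -0.03, 0.00 and 0.01 in DMSO. The DMSO libraries were set against their own mean, which holds their values near 0 and understates their spread. The difference of the medians lay at -0.33 after quantile normalization, at -0.04 after an adjustment for transcript GC content and length, and at 0.06 without a filter on low values. A fall of at least 1 on the log2 scale was reached by 8 of 45 members (17.8%), against 23.7% of all tested genes. No member rose by that much (0 of 45), against 2.63% of all tested genes. The 3 libraries of a group did not overlap with the other 3 in 36 of 45 members (80.0%), against 75.3% of all tested genes. By family that was 25 of 30 DDX and 11 of 15 DHX genes. It held for all 35 members that passed the test, but the test uses the same library values, so this is no independent support for the calls.

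**Figure D1:**
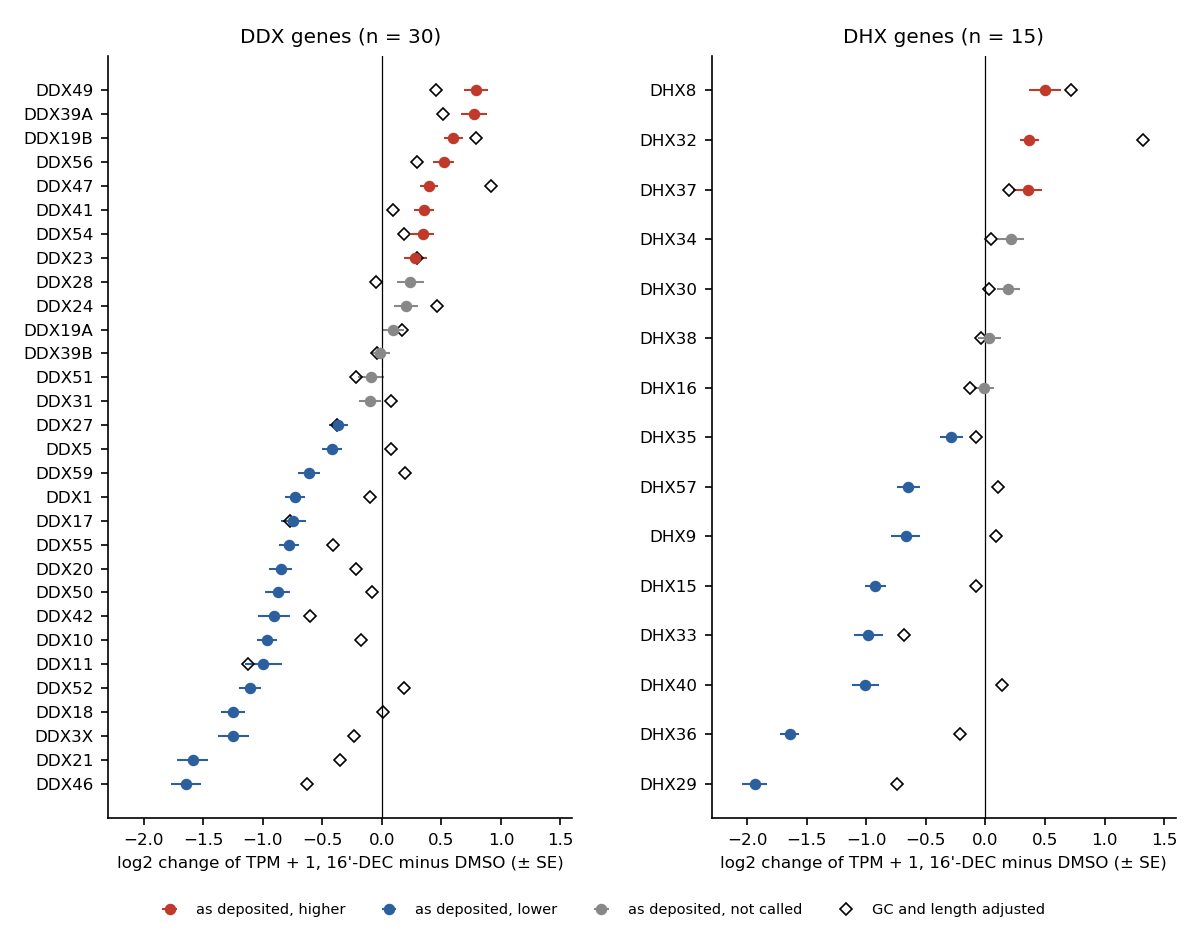
Change of each tested DDX (n = 30) and DHX (n = 15) gene with 16'-DEC minus DMSO on the log2(TPM + 1) scale, as filled points with the standard error, and the same change after a GC and length adjustment as open diamonds. As deposited, 24 genes fell and 11 rose; after the adjustment 12 of the 24 remained lower, DDX52 and DDX59 were called higher, and DHX32 had the largest adjusted rise, 1.32.

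The size and direction of the family's change depended on scaling. Median-of-ratios scaling raised the median of all genes by 0.29, and 21 members then fell (46.7%) and 20 rose (44.4%), against 37.7% and 37.1% of all genes. Quantile normalization raised the median of all genes by 0.41, with 20 members lower (44.4%) and 21 higher (46.7%), against 33.3% and 42.0% of all genes. Under both scalings a larger share of members than of all genes was called in each direction. These shares were not matched for level: every tested member averaged at least 4.22 TPM, whereas all tested genes reach down to a mean of 1 TPM. An adjustment for the GC content and length of each transcript left 13 members lower (28.9%) and 14 higher (31.1%), against 31.7% and 34.5% of all genes. All 11 members that rose as deposited were also called higher under median-of-ratios scaling and quantile normalization, and 10 under the GC and length adjustment, which lost DDX41. Of the 24 that fell, 21 were also called lower under median-of-ratios scaling, 20 under quantile normalization and 12 under the GC and length adjustment. These 12 were DDX3X, DDX11, DDX17, DDX20, DDX21, DDX27, DDX42, DDX46, DDX55, DHX29, DHX33 and DHX36.

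Summed over its genes, the DDX family held 1861 ± 153 TPM with 16'-DEC and 2478 ± 28.96 TPM in DMSO, 24.9% less (mean ± SD, n = 3 each, as for all levels below). The DHX family held 418 ± 42.4 TPM with 16'-DEC and 593 ± 8.54 TPM in DMSO, 29.6% less. The ratio of the DDX sum to the DHX sum was 4.32, 4.46 and 4.60 in the 16'-DEC libraries, against 4.15, 4.20 and 4.18 in DMSO. The groups did not overlap in this ratio. The median DDX gene stood at 42.6, 40.9 and 35.4 TPM with 16'-DEC, against 38.7, 40.0 and 40.5 TPM in DMSO, and the groups overlapped. The median DHX gene stood at 19.3, 19.3 and 18.6 TPM with 16'-DEC, against 27.2, 26.0 and 26.5 TPM in DMSO, without overlap. The median DDX level was therefore above the median DHX level by 1.10, 1.04 and 0.90 on the log2(TPM + 1) scale with 16'-DEC, against 0.50, 0.60 and 0.59 in DMSO, although the median of the changes was lower for DDX genes. Replicate 3 of 16'-DEC was the lowest of its group in 37 of 45 members (82.2%), and in 57.9% of all tested genes. Without that library DHX genes called higher numbered 5 in place of 3.

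Members of translation and mRNA decay held the pair of DHX genes with the largest falls. Of 4 tested, DHX29, DHX36 and DDX3X fell and DHX34 did not pass, with a median change of -1.45. The share of all tested genes that fell was 48.9%. Transcripts of DHX29 and DHX36 have less than 41.3% GC, a class in which 92.2% of all genes fell, with a median of -1.38. That of DDX3X has between 41.3% and 46.1% GC, a class in which 73.7% of all genes fell. DHX29, which helps the small ribosomal subunit scan structured leaders, had 6.68, 6.74 and 5.27 TPM in the 16'-DEC libraries, against 28.0, 26.0 and 25.8 TPM in DMSO. Every 16'-DEC library was far below every DMSO library, a change of -1.94 ± 0.105 (log2 ± SE, adjusted p = 6.24e-07). DHX36, which resolves G-quadruplexes in RNA and DNA, had 19.3, 19.3 and 18.6 TPM with 16'-DEC, against 63.2, 64.4 and 57.8 TPM in DMSO. Its groups were as clearly apart, with a change of -1.65 ± 0.0769 (adjusted p = 2.99e-07). DDX3X, a helicase of translation initiation encoded on the X chromosome, had 75.8, 91.2 and 62.1 TPM with 16'-DEC, against 194, 169.6 and 179.8 TPM in DMSO. It fell by 1.25 ± 0.130 (adjusted p = 2.97e-05), with a wider spread among the 16'-DEC libraries than DHX36. After the GC and length adjustment the changes were -0.74 for DHX29 (adjusted p = 2.41e-05), -0.21 for DHX36 (0.0439) and -0.23 for DDX3X (0.0261). DHX34, which acts in nonsense-mediated decay, averaged 7.44 ± 0.820 TPM with 16'-DEC and 6.27 ± 0.597 TPM in DMSO (change 0.21, adjusted p = 0.115).

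The 9 spliceosomal members divided, with 4 lower (44.4%), 3 higher (33.3%) and 2 not passing, against 48.9% lower and 22.7% higher among all tested genes. Their median change was -0.01 as deposited and 0.33 under median-of-ratios scaling. DDX46, a DEAD-box protein of the U2 particle that acts when the branch site is chosen, had 18.3, 18.5 and 13.7 TPM with 16'-DEC, against 59.5, 49.2 and 55.1 TPM in DMSO. It fell by 1.65 ± 0.126 (adjusted p = 4.37e-06), the largest fall among DDX genes, and by 0.63 after the GC and length adjustment (adjusted p = 0.000413). DDX42, which works at the same early stage, averaged 44.0 ± 8.20 TPM with 16'-DEC and 82.4 ± 7.08 TPM in DMSO (change -0.90, adjusted p = 0.000278). DHX15, which takes spent spliceosomes apart, had 73.8, 86.8 and 70.4 TPM with 16'-DEC, against 152, 142 and 146 TPM in DMSO. Its change was -0.92 ± 0.0901 (adjusted p = 1.99e-05) as deposited and -0.08 after the GC and length adjustment, where it did not pass (adjusted p = 0.211). DHX35 had the smallest fall that passed, -0.29 (adjusted p = 0.029), which did not pass when replicate 1 or 3 of 16'-DEC or replicate 2 or 3 of DMSO was left out. Its value was -0.08 after the GC and length adjustment (adjusted p = 0.274) and 0.04 under median-of-ratios scaling (0.657), and it was called higher after quantile normalization (0.19, adjusted p = 0.0488).

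DHX8, which releases finished mRNA from the spliceosome, moved the other way. It had 39.6, 37.1 and 27.3 TPM with 16'-DEC, against 21.8, 25.5 and 24.6 TPM in DMSO. Its lowest 16'-DEC library was just above its highest DMSO library, and the change was 0.50 ± 0.137 (adjusted p = 0.00927). DDX41, a late-stage spliceosome factor mutated in some myeloid cancers, had 33.6, 31.7 and 31.0 TPM with 16'-DEC, against 22.5, 25.9 and 26.3 TPM in DMSO. It rose by 0.35 ± 0.0872 (adjusted p = 0.00547) and did not pass after the GC and length adjustment (0.09, adjusted p = 0.117). DDX23, which joins the U4/U6.U5 particle, averaged 47.5 ± 4.77 TPM with 16'-DEC and 38.9 ± 2.85 TPM in DMSO (change 0.28, adjusted p = 0.0285). That call was lost when replicate 1 or 2 of 16'-DEC or replicate 1 or 2 of DMSO was left out, with adjusted p up to 0.1. DHX16, which drives the spliceosome into its active form, had 53.4, 54.4 and 47.9 TPM with 16'-DEC, against 49.4, 52.5 and 55.0 TPM in DMSO. The groups overlapped and the change was -0.01 ± 0.0821 (adjusted p = 0.913). It was called lower after the GC and length adjustment (-0.13, adjusted p = 0.0469) and higher under median-of-ratios scaling (0.33, adjusted p = 0.00163) and quantile normalization (0.23, adjusted p = 0.0123). DHX38, the human counterpart of yeast Prp16, averaged 26.7 ± 3.05 TPM with 16'-DEC and 26.0 ± 0.968 TPM in DMSO (change 0.03, adjusted p = 0.791).

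Ribosome biogenesis was the role with the most members, 16, of which 8 fell (50.0%), 5 rose (31.25%) and 3 did not pass. Among all tested genes 48.9% fell and 22.7% rose. The median of the role was -0.23, against 0.09 under median-of-ratios scaling. DDX21, a nucleolar helicase that also acts at RNA polymerase I and II genes, had 82.7, 89.0 and 61.5 TPM with 16'-DEC, against 241, 216 and 242 TPM in DMSO. It was the third most abundant DDX gene by its mean and fell by 1.59 ± 0.131 (adjusted p = 6.79e-06), or by 0.35 after the GC and length adjustment (adjusted p = 0.00709). DDX18, needed for early ribosomal RNA processing, had 37.0, 42.6 and 32.8 TPM with 16'-DEC, against 91.8, 85.2 and 92.9 TPM in DMSO. The fall of 1.25 ± 0.101 (adjusted p = 6.04e-06) was absent from the adjusted values, where the change was 0.01 (adjusted p = 0.94). DDX52, the human counterpart of yeast Rok1, had 11.7, 12.7 and 10.6 TPM with 16'-DEC, against 27.0, 25.7 and 26.1 TPM in DMSO. It fell by 1.11 ± 0.0888 as deposited (adjusted p = 5.74e-06) and was called higher after the adjustment (0.18, adjusted p = 0.0186). DHX33, which acts in ribosomal RNA transcription, had 11.1, 11.5 and 8.31 TPM with 16'-DEC, against 21.3, 20.4 and 21.8 TPM in DMSO. It fell by 0.98 ± 0.120 (adjusted p = 8.26e-05) and by 0.68 after the adjustment (adjusted p = 3.85e-05). The other 4 that fell were DDX10 (-0.97), DDX50 (-0.88), DDX55 (-0.78) and DDX27 (-0.37), with means of 11.0, 21.3, 14.8 and 83.2 TPM under 16'-DEC. DDX10 (-0.18, adjusted p = 0.115) and DDX50 (-0.08, adjusted p = 0.377) did not pass after the GC and length adjustment, whereas DDX55 (-0.41) and DDX27 (-0.38) did. DDX27 did not pass under median-of-ratios scaling (-0.02, adjusted p = 0.800) or quantile normalization (-0.14, adjusted p = 0.0756).

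The ribosome biogenesis members that rose were DDX49, DDX56, DDX47, DDX54 and DHX37. DDX49, the DDX gene with the largest rise, had 44.9, 39.1 and 45.6 TPM with 16'-DEC, against 23.5, 22.7 and 27.4 TPM in DMSO. All 3 treated libraries were above all 3 vehicle libraries, a change of 0.79 ± 0.0995 (adjusted p = 9.77e-05), and 0.46 after the GC and length adjustment (adjusted p = 0.00358). DDX56, a nucleolar helicase of the large subunit's assembly, had 78.0, 75.9 and 77.5 TPM with 16'-DEC, against 47.8, 58.8 and 54.4 TPM in DMSO. It rose by 0.52 ± 0.0876 (adjusted p = 0.000625), with the 16'-DEC libraries within a few TPM of each other. DDX47, which acts on the precursor of the small subunit's RNA, had 52.9, 52.8 and 48.8 TPM with 16'-DEC, against 37.5, 39.8 and 39.4 TPM in DMSO. The rise of 0.39 ± 0.0739 (adjusted p = 0.00117) became 0.92 after the adjustment, and its exons share 1841 bases with those of APOLD1, so reads of the pair may not be told apart. DHX37, which helps assemble the small subunit, had 19.3, 16.3 and 14.7 TPM with 16'-DEC, against 11.3, 13.1 and 14.1 TPM in DMSO. Its lowest 16'-DEC and highest DMSO libraries nearly touched, and the change of 0.36 ± 0.122 (adjusted p = 0.0261) did not pass without replicate 1 or 2 of 16'-DEC or replicate 1 or 2 of DMSO. DDX54 rose by 0.34 ± 0.0971 (adjusted p = 0.0112), at 70.7 ± 3.23 TPM with 16'-DEC and 55.7 ± 6.58 TPM in DMSO. DDX24 (0.20), DDX51 (-0.09) and DDX31 (-0.10) did not pass. Of these, DDX24 was called higher after the GC and length adjustment (0.46, adjusted p = 0.000123).

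**Figure D2:**
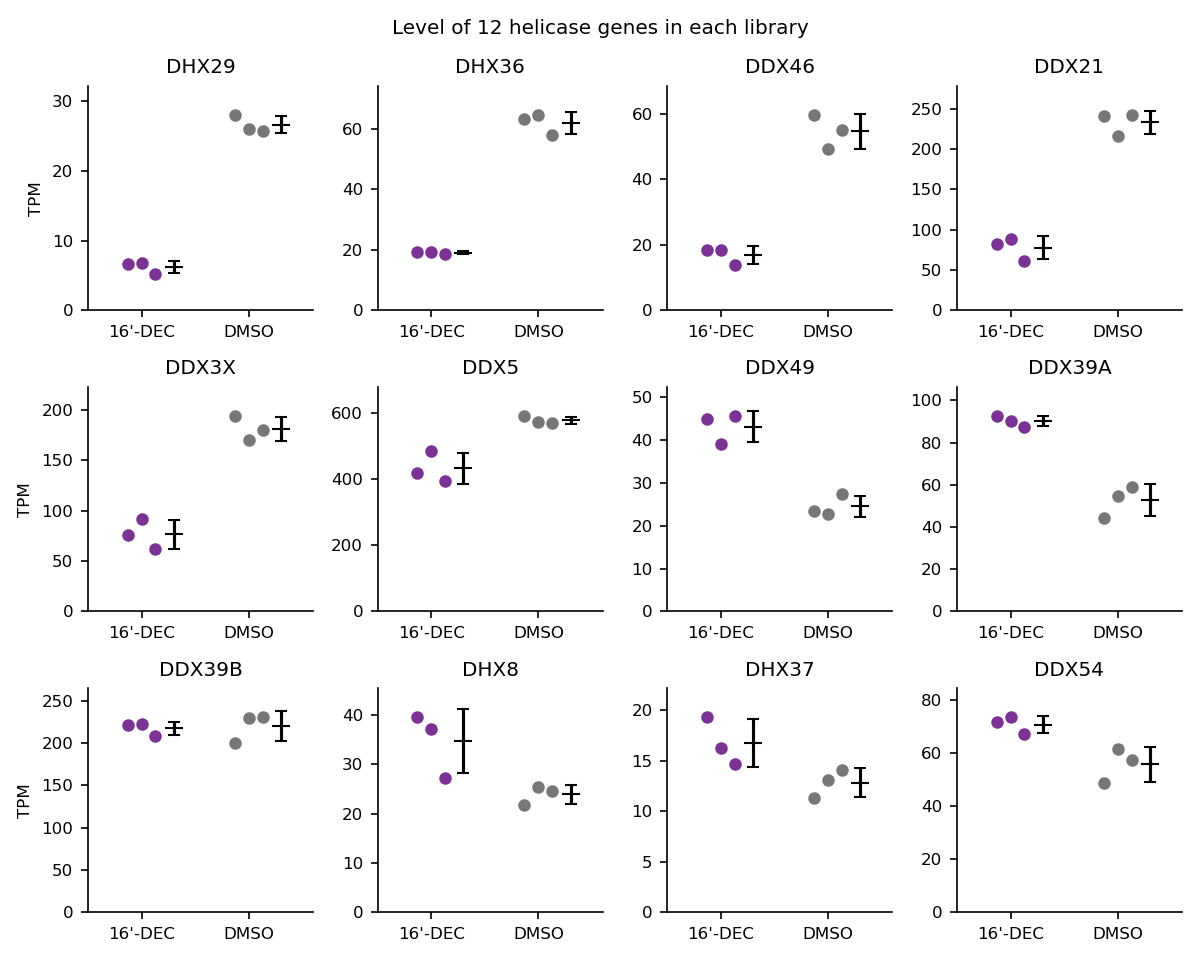
TPM of 12 DDX and DHX genes in each library, 16'-DEC left and DMSO right in each panel, with the mean and SD beside the points (n = 3 per group). DHX29, DHX36, DDX46, DDX21, DDX3X and DDX5 lie lower with 16'-DEC, DDX49, DDX39A, DHX8, DHX37 and DDX54 lie higher, and DDX39B overlaps; DDX5 did not keep its lower direction after the GC and length adjustment (0.08).

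All 5 members of transcription, microRNA processing and ribonucleoprotein assembly fell, with a median change of -0.73, against 48.9% of all tested genes. After the GC and length adjustment 2 of them, DDX17 and DDX20, were called lower, and under median-of-ratios scaling 4, without DDX5. The transcripts of the other 4, without DDX17, have between 41.3% and 46.1% GC, a class in which 73.7% of all genes fell. DDX5, a coactivator of transcription and partner of the microRNA processor Drosha, was the most abundant member, at 419, 484 and 393 TPM with 16'-DEC, against 590.1, 574 and 569 TPM in DMSO. It made up 22.4%, 24.1% and 23.1% of the DDX sum with 16'-DEC, against 23.9%, 23.4% and 22.7% in DMSO, and these shares overlapped. Its fall of 0.42 ± 0.0840 (adjusted p = 0.00165) did not pass under median-of-ratios scaling (-0.07), and the value was 0.08 after the GC and length adjustment (adjusted p = 0.228). Exons of DDX5 share 506 bases with CEP95 on the opposite strand. DHX9, which unwinds RNA and DNA structures including those from Alu repeats, had 66.7, 72.3 and 53.0 TPM with 16'-DEC, against 107, 91.9 and 107 TPM in DMSO. The groups did not overlap and the change was -0.67 ± 0.121 (adjusted p = 0.000914), against 0.08 after the adjustment (adjusted p = 0.35). DDX1, a part of the tRNA ligase complex, averaged 104 ± 11.4 TPM with 16'-DEC and 173 ± 5.63 TPM in DMSO (change -0.73, adjusted p = 7.47e-05). DDX20, also called gemin 3, belongs to the SMN complex that loads proteins on spliceosomal RNAs, and averaged 9.89 ± 1.07 TPM with 16'-DEC and 18.6 ± 0.641 TPM in DMSO (change -0.85, adjusted p = 5.07e-05).

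None of the 4 mRNA export members fell, while 2 rose and 2 did not pass (median 0.35). Across all tested genes 48.9% fell and 22.7% rose. The transcripts of these 4 lie in the GC classes from 46.1% to 52.0% and from 52.0% to 58.4%. In these classes 42.2% and 21.3% of all genes fell, and 21.2% and 41.0% rose. DDX39A, a DECD-box helicase that loads export factors on mRNA, had 92.5, 90.5 and 87.6 TPM with 16'-DEC, against 44.4, 54.6 and 59.1 TPM in DMSO. The lowest 16'-DEC library was well above the highest DMSO library, a change of 0.77 ± 0.106 (adjusted p = 0.000168), or 0.52 after the GC and length adjustment (adjusted p = 0.000331). Its paralog DDX39B, known as UAP56 and active in both splicing and export, had 221, 222 and 209 TPM with 16'-DEC, against 199, 229.9 and 230.3 TPM in DMSO. The groups overlapped and the change was -0.01 ± 0.0783 (adjusted p = 0.882). A readthrough gene that joins DDX39B to its neighbour ATP6V1G2 shares 2079 exon bases with it, so counting could split its reads. DDX19B, which remodels mRNA at the nuclear pore, had 40.4, 37.4 and 35.4 TPM with 16'-DEC, against 24.9, 25.4 and 23.1 TPM in DMSO, a rise of 0.60 ± 0.0834 (adjusted p = 0.000185). The near-identical DDX19A had 35.0, 37.3 and 30.2 TPM with 16'-DEC, against 31.9, 31.2 and 32.1 TPM in DMSO. It overlapped between groups and did not pass as deposited (0.10 ± 0.0917, adjusted p = 0.36). DDX19A was called higher after the GC and length adjustment (0.17, adjusted p = 0.0265), under median-of-ratios scaling (0.44, adjusted p = 0.000436) and after quantile normalization (0.44, adjusted p = 0.000529). All 4 export members were called higher under median-of-ratios scaling, with a median of 0.69.

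Neither mitochondrial member passed the test as deposited. DDX28, found in mitochondrial RNA granules, averaged 6.54 ± 0.341 TPM with 16'-DEC and 5.42 ± 0.755 TPM in DMSO (change 0.24, adjusted p = 0.0891). DHX30, which acts in mitochondrial ribosome assembly, averaged 35.9 ± 3.03 TPM with 16'-DEC and 31.3 ± 2.90 TPM in DMSO (change 0.19, adjusted p = 0.108). Both were called higher under median-of-ratios scaling (0.54 and 0.53) and neither after the GC and length adjustment (-0.05 and 0.03).

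DDX11, a DNA helicase of sister chromatid cohesion, had 7.34, 5.21 and 4.65 TPM with 16'-DEC, against 10.6, 12.7 and 13.6 TPM in DMSO. It fell by 0.99 ± 0.157 (adjusted p = 0.000424) and by 1.12 after the GC and length adjustment (adjusted p = 0.000103). Near-identical copies of DDX11 exist in the genome, among them the pseudogenes left out above, so the authors' counting could have split its reads. Of 4 members whose roles are less defined, 3 fell and 1 rose, with a median of -0.63 as deposited and 0.17 after the GC and length adjustment. For all tested genes the shares were 48.9% lower and 22.7% higher. The transcript of DHX40 has less than 41.3% GC, a class in which 92.2% of all genes fell. Those of DHX57, DDX59 and DHX32 have between 41.3% and 46.1% GC, where 73.7% of all genes fell and 6.77% rose. DHX40 had 13.3, 15.5 and 11.5 TPM with 16'-DEC, against 29.5, 26.3 and 27.7 TPM in DMSO. It fell by 1.01 ± 0.113 (adjusted p = 4.7e-05), and did not pass after the adjustment, where the value was 0.13 (adjusted p = 0.127). DHX57 (-0.65) and DDX59 (-0.61) also fell, at 9.08 ± 0.984 and 9.01 ± 0.783 TPM with 16'-DEC. DDX59 was called higher after the adjustment (0.20, adjusted p = 0.0404) and did not pass after quantile normalization (-0.14, adjusted p = 0.200). DHX57 did not pass in either (0.11, adjusted p = 0.122 after the adjustment, and -0.17, adjusted p = 0.0632 after quantile normalization). DHX32 went the other way, at 34.9, 36.8 and 32.5 TPM with 16'-DEC, against 27.2, 25.9 and 26.9 TPM in DMSO. The rise of 0.37 ± 0.0787 (adjusted p = 0.00249) grew to 1.32 after the adjustment (adjusted p = 2.41e-06), and 409 exon bases are shared with BCCIP.

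The remaining 7 members stayed below a mean of 1 TPM and were not tested. They include the germline helicases DDX4, DDX25, DDX43 and DDX53, of which DDX43 was listed at 0 in all 6 libraries. DDX4, also called VASA, reached at most 0.029 TPM in any library. The antiviral members were DHX58, also called LGP2, with DDX60 and DDX60L. DHX58 had the highest mean of the 7, 0.448 TPM, with 0.518, 0.756 and 0.560 TPM under 16'-DEC, against 0.252, 0.395 and 0.207 TPM in DMSO. Its groups did not overlap, at levels where TPM alone do not show how many reads lie behind a value. DDX60L had 0.412, 0.101 and 0.336 TPM with 16'-DEC, against 0.169, 0.0170 and 0.408 TPM in DMSO, with overlap.

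**Figure D3:**
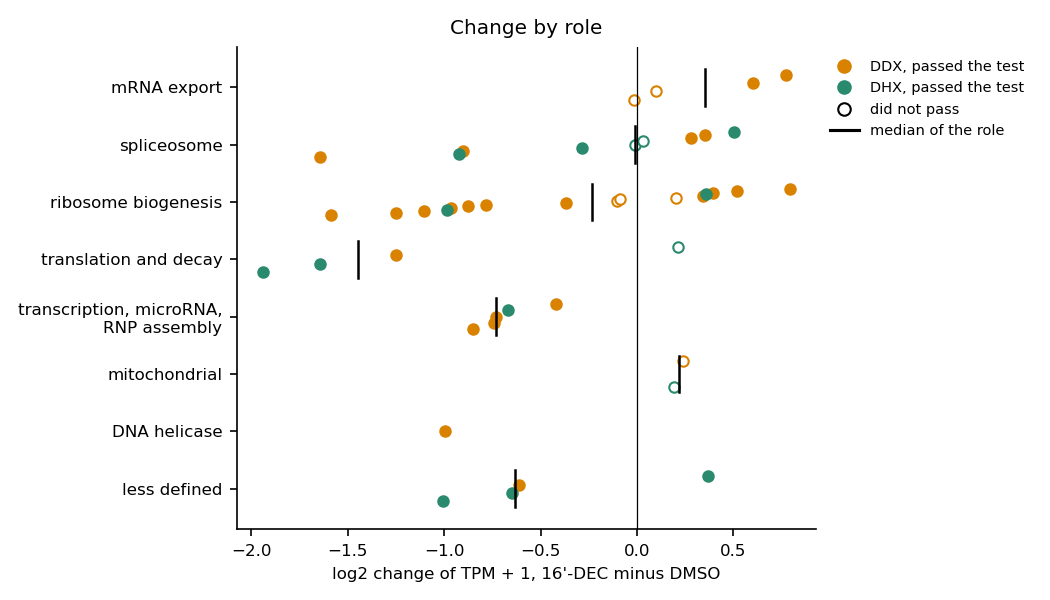
Change of each tested member with 16'-DEC minus DMSO on the log2(TPM + 1) scale by role, filled where it passed the test and open where it did not, with a line at the median of the role. Medians run from -1.45 for translation and decay (-0.22 after the GC and length adjustment) to 0.35 for mRNA export; the median of ribosome biogenesis, -0.23 here, was 0.09 under median-of-ratios scaling and 0.04 after the GC and length adjustment, and that of the less defined members, -0.63 here, was 0.17 after that adjustment. The spliceosomal median, -0.01 here, was 0.33 under median-of-ratios scaling, and the mitochondrial one, 0.22 here, was -0.01 after the GC and length adjustment.

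Paralogs were compared within each library, where a common scaling factor cancels except through the pseudocount of 1, but a bias with transcript GC content or length does not. The log2 ratio of DDX39A to DDX39B was -1.25, -1.29 and -1.24 with 16'-DEC, against -2.14, -2.05 and -1.94 in DMSO. It was higher with 16'-DEC in all 3 libraries, by 0.79. The ratio of DDX19A to DDX19B averaged -0.14 ± 0.12 with 16'-DEC and 0.36 ± 0.09 in DMSO, lower by 0.50. For DDX21 over DDX50, a nucleolar pair that shares the DEVD motif, the ratio averaged 1.81 ± 0.22 with 16'-DEC and 2.53 ± 0.11 in DMSO, lower by 0.71. For DDX5 over DDX17, coactivators with overlapping functions, it averaged 2.20 ± 0.11 with 16'-DEC and 1.88 ± 0.05 in DMSO, higher by 0.32. DDX17 itself had 97.2, 106 and 78.2 TPM with 16'-DEC, against 157, 152 and 159.7 TPM in DMSO, and fell by 0.74 ± 0.108 (adjusted p = 0.000242). DDX50 had 19.2, 25.1 and 19.6 TPM with 16'-DEC, against 39.9, 40.2 and 38.6 TPM in DMSO, and fell by 0.88 ± 0.107 (adjusted p = 8.56e-05). No pair's ratios overlapped between groups. Each gave an exact permutation p of 0.1 (2-sided), the smallest that 3 against 3 libraries allow, and 0.1 after adjustment over the 4 pairs. With the GC and length adjustment, an alternative chosen after seeing the data, the differences were 0.55 for DDX39A over DDX39B, -0.62 for DDX19A over DDX19B, -0.27 for DDX21 over DDX50 and 0.85 for DDX5 over DDX17, each in the same direction as without it.

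The pairs differed in how far their coding sequences have diverged. DDX19A and DDX19B were identical at 95.3% of aligned coding bases and had no difference in the 84 bases around motif II. A readthrough gene shares 1876 exon bases with DDX19A and 711 with DDX19B, so reads of this pair are uncertain. DDX39A and DDX39B matched at 80.0%, DDX21 and DDX50 at 71.6%, and DDX5 and DDX17 at 71.3%. The stretches of DDX39A and DDX39B printed above differ at 20 of 84 bases, 14 of them at the third position of a codon. At 10 of these 14, G or C stands only in DDX39A, and at 2 only in DDX39B.

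**Figure D4:**
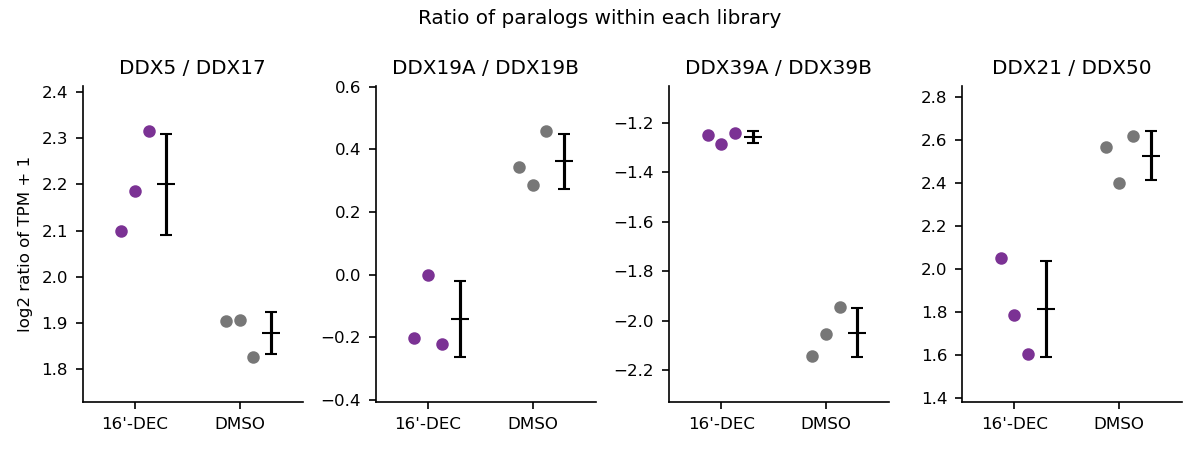
Log2 ratio of (TPM + 1) between paralogs in each library, 16'-DEC left and DMSO right in each panel, with the mean and SD beside the points (n = 3 per group); each panel has its own axis, which does not start at 0. The ratios lie apart in all 4 pairs, with DDX39A over DDX39B at -1.26 ± 0.02 with 16'-DEC and -2.05 ± 0.10 in DMSO.

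Members that fell had transcripts of lower GC content than members that rose. The transcripts of the 24 that fell had a median GC content of 43.5% (range 38.5% to 57.5%), those of the 11 that rose 56.6% (41.9% to 62.0%) and those of the 10 that did not pass 56.6% (49.5% to 61.5%). At the third position of codons the medians were 39.0% for members that fell, 64.2% for those that rose and 66.1% for those that did not pass. The tested genes were divided into 5 classes of equal size by transcript GC content. In the lowest class, below 41.3% GC, all 6 members fell, with a median change of -1.42, against 92.2% of all its genes and a median of -1.38. From 41.3% to 46.1%, 11 of 13 members fell and 2 rose, with a median of -0.73, against 73.7% of all genes lower and a median of -0.72. From 46.1% to 52.0%, 5 of 11 fell and 2 rose, with a median of -0.10, against 42.2% of all genes lower, 21.2% higher and a median of -0.20. From 52.0% to 58.4%, 2 of 7 fell and 3 rose, with a median of 0.03, against 21.3% of all genes lower, 41.0% higher and a median of 0.16. In the highest class 4 of 8 rose and none fell, with a median of 0.29, against 47.7% of all genes higher and a median of 0.26.

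Across the 45 members, change and transcript GC content had a Spearman rho of 0.72 (0.73 over 30 DDX and 0.70 over 15 DHX genes). Over all 13291 genes with a GC value the rho was 0.68, so the members followed the trend of the transcriptome. Genes share libraries and base composition and are not independent replicates, and these values are a description. After the GC and length adjustment the members' rho was 0.19, but the adjustment removes the trend with GC content over all genes, so a lower value was built in. DDX11 (57.5% GC) fell against the trend, and DHX32 (41.9%) and DDX47 (44.4%) rose against it; these 3 were picked after their values were seen.

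**Figure D5:**
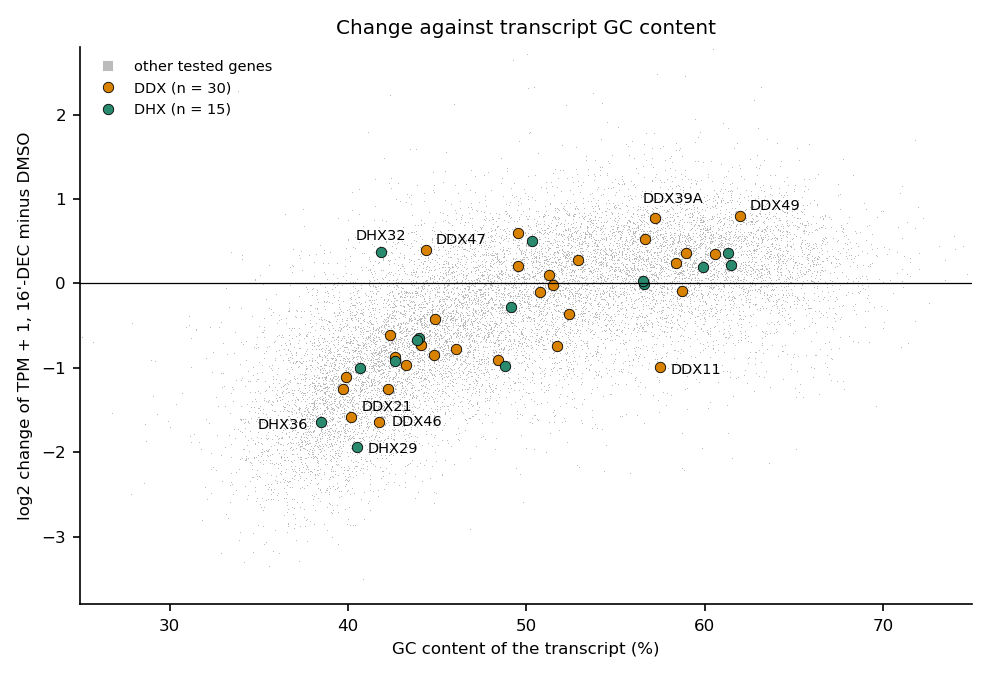
Change of each gene with 16'-DEC minus DMSO on the log2(TPM + 1) scale against the GC content of its transcript, for DDX (n = 30), DHX (n = 15) and other tested genes; the axes leave out the most extreme of the other genes. The 6 members below 41.3% GC all lie below 0 and 7 of the 8 from 58.4% GC on lie above it, while DDX11, DHX32 and DDX47 lie off the trend; after the GC and length adjustment 14 members were called higher and 13 lower.

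Close relatives and partner proteins gave a setting for these values. The 3 eIF4A genes are DEAD-box helicases under another name that unwind mRNA leaders or mark exon junctions. EIF4A1 averaged 1121 ± 15.6 TPM with 16'-DEC and 669 ± 51.9 TPM in DMSO, above every member, and rose by 0.75 (adjusted p = 1.88e-05). EIF4A3 rose by 0.44 (adjusted p = 0.000411), and EIF4A2 fell by 0.43 (adjusted p = 0.000975) but was called higher after the GC and length adjustment (0.58). Of 16 tested RNA helicases outside both families 8 fell and 4 rose, shares near the 48.9% and 22.7% of all tested genes. The median of these 16 helicases was -0.59, against 0.06 after the GC and length adjustment. Among them the sensor IFIH1 changed by -1.79, the ribosome rescue helicase ASCC3 by -1.68 and HELZ2 by 0.52. RIGI fell by 0.80 ± 0.113 (adjusted p = 0.000215).

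Partner proteins of the helicases also moved in both directions. For all tested genes the shares were 48.9% lower and 22.7% higher. Of 21 G-patch proteins, which switch on DEAH-box helicases, 10 fell (47.6%) and 7 rose (33.3%). The G-patch median was -0.09, against 0.22 under median-of-ratios scaling, with AGGF1 at -1.84, SON at -1.22 and GPANK1 at 1.02. Of 12 partners of DEAD-box helicases, not all of them with a MIF4G-type domain, 8 fell (66.7%) and 1 rose (8.33%). The median of these partners was -0.92, or -0.06 after the GC and length adjustment. CWC22 changed by -2.31 and EIF4E by -1.85, while EIF4G1, the scaffold that activates eIF4A, was the 1 that rose (0.25, adjusted p = 0.0272). Of 28 other spliceosome proteins 14 rose (50.0%) and 10 fell (35.7%), with XAB2 at 0.72, SF3A2 at 0.68 and BCAS2 at -1.73. Their median was 0.22. Among 15 genes of TREX, the export complex that DDX39A and DDX39B join, and its export partners, 5 rose (33.3%) and 6 fell (40.0%). This list had a median of -0.04, against 0.29 under median-of-ratios scaling. THOC2 (-2.37) and THOC1 (-2.08) fell and ALYREF rose (0.77). THOC2 averaged 18.1 ± 0.581 TPM with 16'-DEC and 98.2 ± 1.62 TPM in DMSO.

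Of 30 nucleolar ribosome assembly factors 17 fell (56.7%) and 8 rose (26.7%), against 48.9% and 22.7% of all tested genes. The nucleolar median was -0.31, against 0.04 under median-of-ratios scaling. ESF1 averaged 11.0 ± 1.30 TPM with 16'-DEC and 99.7 ± 4.65 TPM in DMSO, a change of -3.08 (adjusted p = 1.17e-07). NOP58, a core protein of box C/D particles, changed by -2.28, and NOP10, of the box H/ACA particles, by 0.61. Of 12 tested genes of the RIG-I pathway and interferon response 5 rose and 3 fell (median 0.31), with OAS1 at 1.19, IRF3 at 0.81 and TBK1 at -2.02. Of 12 genes of the SMN and tRNA ligase complexes, which hold DDX20 and DDX1, 6 fell and 3 rose (median -0.31, against 0.09 after the GC and length adjustment). FAM98B changed by -1.66 and ZBTB8OS by -1.65, while RTCB, the ligase itself, rose by 0.61 (adjusted p = 5.01e-05).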

How the data were processed

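Poly(A) RNA of 6 Huh7 libraries, 3 with 16'-DEC and 3 with DMSO by their titles, was analysed. The authors deposited 1 table of TPM values over 78304 genes. The submitters' processing notes name HISAT2 2.0.1, HTSeq 0.6.1, cutadapt 1.9.1, the build GRCh38 and DESeq2, with no role or order. Per the labels' protocols, poly(A) RNA was selected with oligo(dT) and primed at random, and no strand marking is described, so overlapping genes may share reads. This touched 21 of 52 members, whose exons share bases with another coding gene. Absolute depth is not recoverable from TPM.

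The 14275 genes that averaged at least 1 TPM over the libraries were compared on log2(TPM + 1) in R 4.3.3 by limma 3.58.1, with moderated variances that follow the mean level. Tests were 2-sided, p-values were adjusted by Benjamini and Hochberg's method over these genes, and 0.05 was the threshold. Every adjusted p-value of a single gene is from limma. This scale understates changes of low genes. GC content, length, coordinates and coding sequences came from GENCODE 29 on GRCh38, with 1 transcript per gene (the APPRIS principal one where marked, otherwise a basic one, and the longest among equals), for 93.1% of tested genes and all 52 members. The adjustment removed natural splines (5 degrees of freedom each) of GC content and log2 length from each library's deviations. It also re-centres each library. Paralog ratios were compared with exact permutation tests, adjusted over the 4 pairs. Their GC and length adjustment and the omission of single libraries from them were chosen after seeing the data.

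The members and lists were chosen with earlier results of these data known. Values of every library are given for the 6 DDX and 4 DHX genes of largest rise and of largest fall among those called (3 DHX genes rose), for the 3 of each family with the highest mean, and for the paralog pairs. DHX58 and DDX60L were added after their values were seen. From each partner list the text names up to 2 called genes that moved as most of the list did and 1 that moved the other way, taken by adjusted p. Alternatives were pseudocounts of 0.1 and 5, other filters, median-of-ratios scaling, quantile normalization, the GC and length adjustment, removal of mitochondrially encoded genes, variances without the trend, a stricter threshold of 0.01, a replicate block, and omission of single libraries. The limma step was tested on simulated data with independent normal noise, few changed genes and no trend with GC content. These settings differ from the real data, so the simulation does not bear on the calls given here. At most 0.0692% of values were identical between any pair of libraries, counted over genes at 1 TPM or more. Python 3.11.15 and matplotlib 3.10.9 drew the figures.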

Additional observations from a re-analysis of the deposited data

How the results depend on the processing

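TPM hold no absolute depth, and counts of higher and lower helicases depended on scaling. As deposited, 8 DDX and 3 DHX genes rose and 16 DDX and 8 DHX genes fell. DDX genes called higher numbered 13 under median-of-ratios scaling and 13 after quantile normalization, and DHX genes called higher 7 and 8. After the GC and length adjustment 9 DDX and 4 DHX genes were lower, and with the replicate block added to it 9 and 2. Leaving out 1 library at a time gave 2 to 5 DHX genes called higher. The DDX median minus DHX median, -0.11 as deposited, was 0.0588 without a filter, -0.33 after quantile normalization, -0.168 with a pseudocount of 5 and -0.0444 after the GC and length adjustment, with or without the block. That adjustment of the paralog ratios gave 0.853 for DDX5 over DDX17, -0.622 for DDX19A over DDX19B, 0.554 for DDX39A over DDX39B and -0.271 for DDX21 over DDX50, and leaving out single libraries turned no ratio's direction. Beyond these, pseudocounts, the filter at 5 TPM, removal of mitochondrially encoded genes and the fit without a mean trend changed no member's call. At a threshold of 0.01, 4 members were no longer called, and without a filter 3.

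Signs turned as follows, and the causes were not tested. With the GC and length adjustment, with or without the block, the values were 0.00603 for DDX18, -0.0503 for DDX28, 0.0764 for DDX31, 0.0782 for DDX5, 0.18 for DDX52, 0.20 for DDX59, -0.0353 for DHX38, 0.13 for DHX40, 0.11 for DHX57 and 0.0846 for DHX9. Under median-of-ratios scaling they were 0.22 for DDX31, 0.34 for DDX39B, 0.20 for DDX51, 0.33 for DHX16 and 0.0388 for DHX35. After quantile normalization they were 0.38 for DDX31, 0.0506 for DDX39B, 0.44 for DDX51, 0.23 for DHX16 and 0.19 for DHX35. Leaving out 1 library moved 3 uncalled genes across 0, within -0.0823 to 0.0209 for DDX39B, -0.0509 to 0.0450 for DHX16 and -0.0489 to 0.110 for DHX38. Without replicate 3 of 16'-DEC, DDX19A, DDX24, DHX30 and DHX34 were called higher as well.

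Replicate numbers did not pair the libraries: deviations of same-numbered libraries correlated at 0.0941, -0.182 and -0.0726. With the replicate number as a block 7 DDX and 2 DHX genes rose and 16 DDX and 8 DHX genes fell. DDX23 and DHX37 were the 2 members whose call was lost.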
